A study of Homo sapiens with 9 samples.

Results

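The genes described here are 59 human genes of RNA helicases and of nonsense-mediated decay, 41 of them DEAH-box or DEAD-box helicases and 18 of them decay factors or their partners. They were chosen by name, and a peak of the DHX34 binding map was counted for a gene when it overlapped the span of that gene in GENCODE release 44 (GRCh38) by at least 1 nt. By this rule 10 of the 59 genes held a peak, and 10 of the 2261 peaks of the map lay in them, 1 per gene. The annotation gave 19320 protein-coding genes on chromosomes 1 to 22 and X, read-through genes left out, and these served as background.

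Binding of DHX34 to RNA was mapped in HEK293T, a human embryonic kidney cell line, by seCLIP, in which UV light crosslinks a protein to the RNA that it touches and the fragments recovered with the protein are sequenced. The 5 DHX34-GFP libraries came from 1 clone, A5, whose endogenous DHX34 gene had been edited with CRISPR/Cas9 to carry GFP and FLAG at the end of the protein, and anti-GFP beads were used for the pull-down. Untagged HEK293T cells gave the 4 control libraries, which are labeled both as anti-GFP and as input. All 9 were crosslinked. The measurement analyzed here is 1 list of peaks over these libraries, in which each peak has a position and an integer between 1 and 4, called its score here, whose meaning is not given in the sources used here. Read counts, strands and values of single libraries are not part of this list. Depth, replicate spread and the level in the controls are therefore unknown for each peak. For further study the authors kept a smaller set of peaks, filtered on read count and on reads around the peak. Only a minority of that set had such read support in more than 1 replicate. The list does not mark which of its peaks passed this filter. It holds no expression values either, so the cell line could not be checked against its markers, and the background includes genes that HEK293T may not transcribe. A gene without a peak is therefore a gene without a called peak, which does not show that its RNA was unbound.

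Nonsense-mediated decay (NMD) degrades mRNAs whose translation stops early. The helicase UPF1 is its central factor, the kinase SMG1 phosphorylates UPF1, and exon junction complexes left upstream of spliced junctions mark a stop codon as premature through UPF2 and the UPF3 proteins. DEAD-box and DEAH-box helicases use ATP to remodel RNA and RNA-protein complexes, and different members act in splicing, export, ribosome assembly, translation and RNA turnover. Many factors of NMD and splicing have transcripts that are themselves spliced into NMD targets.

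The peaks that the results turn on are shown first, read 5′ to 3′ on the strand of the gene. Capitals mark bases in exons of the MANE Select transcript, the reference transcript of each gene, and lower case marks its introns. The first 4 are the peaks that overlapped an exon, the DHX37 peak lay closest to a splice site among the intronic ones, and the SMG6 peak had the most G near its 5′ edge.

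DHX34, chr19:47379762-47379880, plus strand, exon 14 of 17: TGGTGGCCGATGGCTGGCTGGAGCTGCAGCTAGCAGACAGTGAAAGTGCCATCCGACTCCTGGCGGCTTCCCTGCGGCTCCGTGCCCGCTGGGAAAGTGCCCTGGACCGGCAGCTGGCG

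DDX17, chr22:38487813-38488096, minus strand, exon 12 of 13 and the start of intron 12: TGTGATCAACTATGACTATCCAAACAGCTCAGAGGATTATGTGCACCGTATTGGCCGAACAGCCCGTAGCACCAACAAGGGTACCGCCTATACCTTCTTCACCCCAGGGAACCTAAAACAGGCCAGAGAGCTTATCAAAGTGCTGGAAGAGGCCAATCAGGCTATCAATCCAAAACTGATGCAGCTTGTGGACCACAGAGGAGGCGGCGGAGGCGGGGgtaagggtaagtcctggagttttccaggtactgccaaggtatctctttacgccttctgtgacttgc

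DDX21, chr10:68982612-68982822, plus strand, exon 15 of 15: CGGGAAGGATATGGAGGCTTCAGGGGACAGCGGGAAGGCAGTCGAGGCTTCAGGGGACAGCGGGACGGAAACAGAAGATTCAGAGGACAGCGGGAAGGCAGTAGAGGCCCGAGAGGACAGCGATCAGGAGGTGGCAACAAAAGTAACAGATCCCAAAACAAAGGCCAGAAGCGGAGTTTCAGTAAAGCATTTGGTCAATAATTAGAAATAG

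UPF3B, chrX:119834874-119835024, minus strand, exon 11 of 11: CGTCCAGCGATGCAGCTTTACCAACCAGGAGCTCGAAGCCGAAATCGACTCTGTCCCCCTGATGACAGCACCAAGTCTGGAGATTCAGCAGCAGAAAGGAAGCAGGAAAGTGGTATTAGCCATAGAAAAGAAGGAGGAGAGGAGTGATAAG

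DHX37, chr12:124954286-124954387, minus strand, intron 18 of a transcript of 27 exons: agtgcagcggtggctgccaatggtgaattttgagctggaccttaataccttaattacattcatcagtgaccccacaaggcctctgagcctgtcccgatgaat

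SMG6, chr17:2233573-2233675, minus strand, intron 10 of a transcript of 19 exons: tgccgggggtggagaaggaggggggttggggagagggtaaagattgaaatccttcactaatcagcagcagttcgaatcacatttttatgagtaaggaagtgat

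The peak on the transcript of DHX34 itself, the helicase that was immunoprecipitated, lay late in the gene. It was 119 nt wide, was 1 of 47 peaks in the map with a score of 2, and was the only member peak with a score above 1. It lay wholly inside exon 14, which is 276 nt long, with 52 nt of the exon before it and 105 nt after it. It crossed no splice site. The bases under the peak code for residues 920 to 959 of the 1143 of the protein, and 552 nt of spliced mRNA separated its end from the stop codon. The guide used to place the tag matched exon 17, 2216 nt downstream of the peak on the genome, so that the peak did not overlap the edited site.

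DHX34 has an annotated transcript of the NMD class, which holds an extra exon of 75 nt between exons 12 and 13 (chr19:47376915-47376989). This exon is shown up to the premature stop that it brings into the reading frame, with the stop codon in capitals, because it lies close to the exon under the peak but has none itself.

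DHX34, exon 6 of the NMD-class transcript, up to its stop, plus strand: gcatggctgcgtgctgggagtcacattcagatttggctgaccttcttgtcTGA

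The stop begins at base 51 of the 75 nt, counted from the first base of the exon, and the annotation places it at the same position. The peak began 2772 nt after the end of this exon and 3201 nt after the end of exon 12. Neither this exon, intron 12 of 539 nt around it, nor exons 12 and 13 held a called peak. The RT-PCR primers for exon 12 listed by the study matched exons 12 and 13, 3291 nt and 2563 nt upstream of the peak. Exon 14 is part of 3 of the 4 annotated DHX34 transcripts, namely the coding transcript, the NMD-class transcript and a transcript with a retained intron. The peak cannot be assigned to one of them, and in the NMD-class transcript exon 14 lies past the premature stop.

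**Figure D1:**
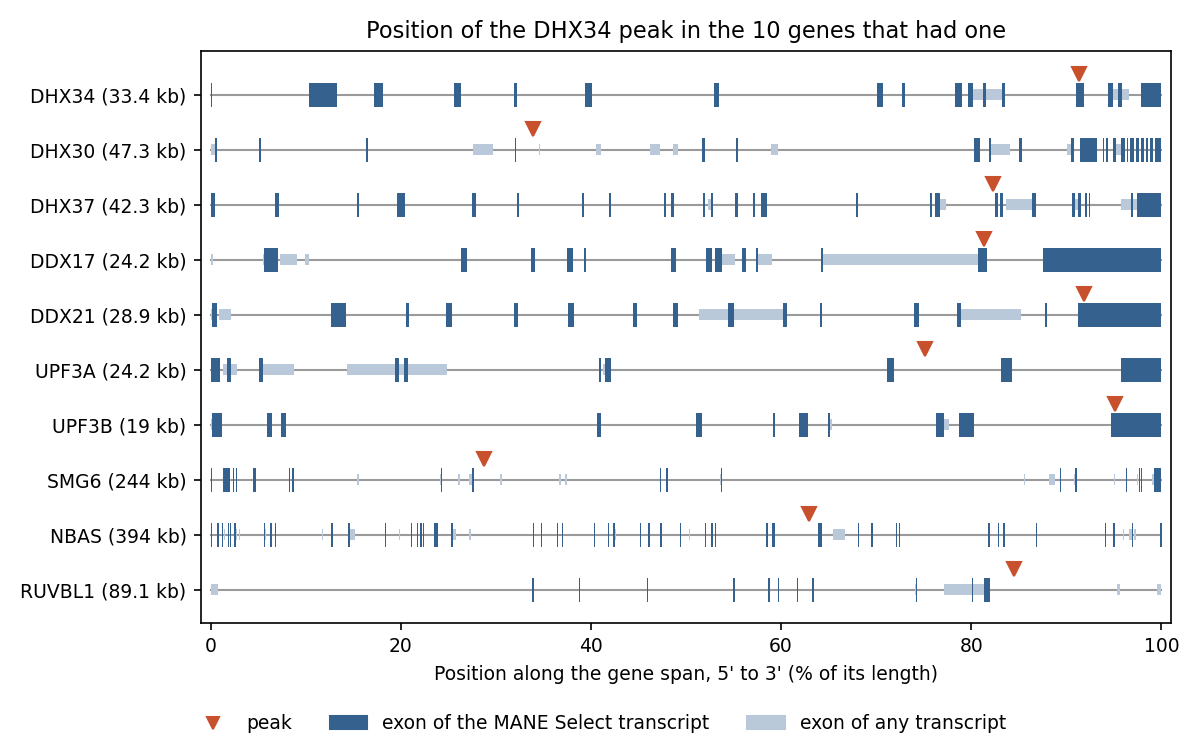
Position of the peak (red triangle) in the 10 member genes that held one, along the gene span from 5′ to 3′ in percent of its length, with exons of the MANE Select transcript in dark blue, exons of any transcript in light blue, and the shortest exons drawn at a minimum width. The peaks of DHX34, DHX37, DDX17, DDX21, UPF3B and RUVBL1 lie past 80% of the gene, whereas that of SMG6 lies at 28.8% and that of DHX30 at 33.9%.

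Of the other 14 DEAH-box helicases, DHX30 and DHX37 held a peak, both in an intron. DHX30 acts in mitochondria, where it is needed for the assembly of mitochondrial ribosomes, and also in the cytoplasm. Its peak (chr3:47818883-47818984, 102 nt) lay in intron 4 of a transcript of 22 exons, 765 nt after the end of exon 4 and 8362 nt before the next exon. Over all DHX30 transcripts, the nearest splice acceptor lay 251 nt from the peak. DHX37 is a nucleolar helicase of small ribosomal subunit assembly. Its peak of 102 nt lay in intron 18, near the 3′ end of this intron of 2.48 kb, 74 nt before the exon that follows. The remaining 12 DEAH-box genes held no peak. Among them were the spliceosomal helicases DHX8, which releases the spliced mRNA, DHX15, which takes the spliceosome apart, DHX16, which acts before the first catalytic step, DHX35, a component of the catalytic spliceosome, and DHX38, which acts before the second step. The others were DHX9, which unwinds RNA and DNA duplexes in the nucleus, DHX29, which helps ribosomes scan structured leaders, DHX33, linked to ribosomal RNA synthesis, DHX36, which unwinds G-quadruplexes, and DHX32, DHX40 and DHX57.

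DDX17 and DDX21 were the only DEAD-box genes of the 26 with a peak, and both peaks lay on coding exons. DDX17 is a close relative of DDX5 and acts in transcription and alternative splicing. Its peak of 284 nt was the widest of the 10. It covered 218 nt of exon 12, from 19 nt after the start of the exon to its end, and ran 66 nt into intron 12. It crossed 2 alternative 5′ splice sites that lie 6 nt apart. The 5′ splice site of the MANE Select transcript reads GGGgtaagg, with the exon in capitals, and that of the other coding transcript AGGgtaagt. The exonic bases code for residues 489 to 562 of 729. DDX17 was the only member whose peak crossed a splice site, at 1 of 10 member peaks against 309 of 1900 peaks in other protein-coding genes (16.3%). DDX5 held no peak, although 142 of the 201 nt of the DDX17 exon that could be aligned with its mRNA were identical (70.6%).

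DDX21 is a nucleolar helicase of ribosomal RNA transcription and processing. Its peak of 211 nt lay in the last exon, beginning 69 nt after the splice acceptor, and held the last 198 coding bases, residues 718 to 783 of 783, followed by 13 nt that begin with the stop codon. These coding bases are repetitive. The octamer GGACAGCG stood 4 times in the peak, every 30 nt from base 25 to base 115, and no octamer stood more than 2 times in any other member peak. The stretch was still unique in the genome, since none of its 31-mers occurred elsewhere.

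DDX41, a spliceosomal helicase, held no peak in its 5.38 kb, and the nearest one lay 12.2 kb upstream. The other DEAD-box genes without a peak were the spliceosomal DDX23, DDX39B, DDX42 and DDX46, the translation and decay helicases DDX3X and DDX6, and DDX1, DDX19A, DDX20 and DDX39A, which act in transcription, small nuclear ribonucleoprotein assembly, splicing or export. Those of ribosome assembly were DDX10, DDX18, DDX24, DDX27, DDX31, DDX47, DDX50, DDX51, DDX52, DDX54, DDX55 and DDX56. DDX50, the paralog of DDX21, lies beside it on chromosome 10, and the peak nearest to DDX50 was 35.8 kb downstream of it. Sorted by role, the helicases with a peak were DHX34, 0 of 10 of the spliceosome (95% Wilson interval 0 to 27.8%), 2 of 15 of ribosome biogenesis, 1 of 7 of transcription, alternative splicing or export, 1 of 5 of translation, turnover or mitochondria, and 0 of 3 with no assigned role. The shares of all protein-coding genes at the lengths of these groups were, in the order given after DHX34, 9.01%, 8.02%, 5.86%, 9.25% and 11.5%. At the lengths of the 10 spliceosomal helicases this share comes to 0.901 genes, so their count of 0 lies within 1 gene of it.

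**Figure D2:**
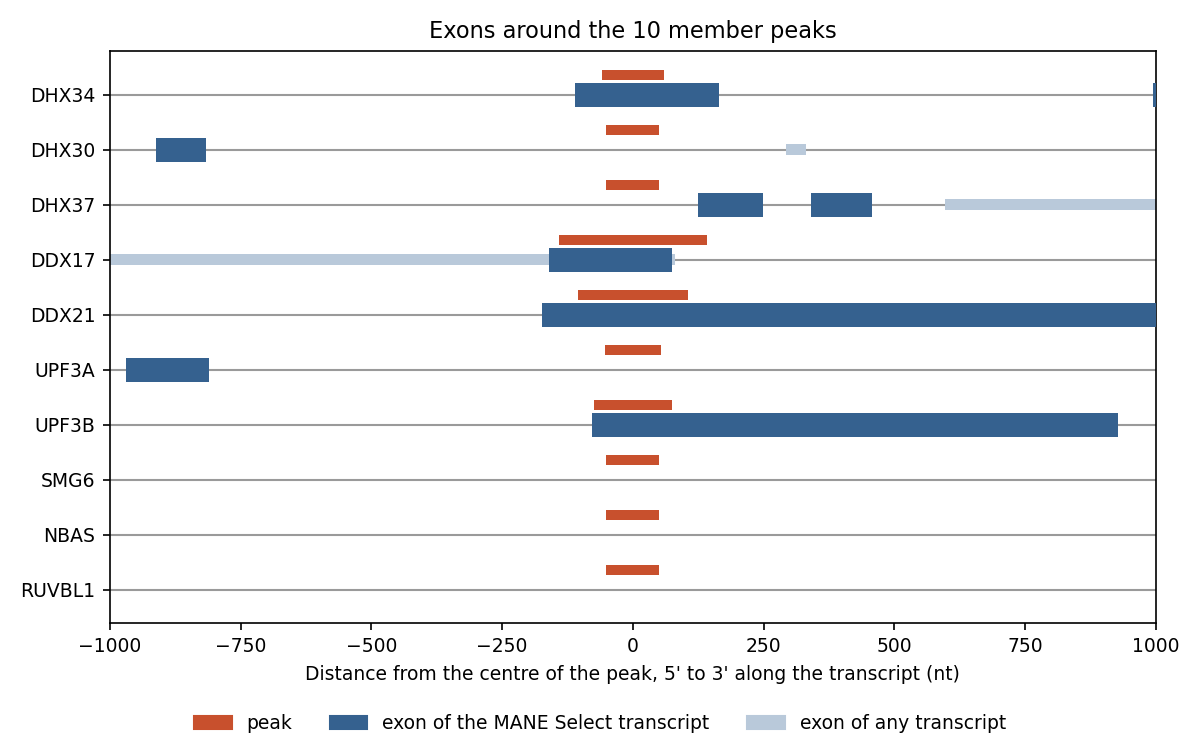
Exons within 1000 nt of the center of each of the 10 member peaks, 5′ to 3′ along the transcript, with the peak in red above the line, exons of the MANE Select transcript in dark blue and exons of any transcript in light blue. The DHX34 peak sits inside its exon, the DDX17 peak runs out of the 3′ end of its exon, the DDX21 and UPF3B peaks lie near the start of a last exon, and no exon falls within 1000 nt of the SMG6, NBAS and RUVBL1 peaks.

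The 10 genes grouped here as core NMD genes were the UPF and SMG genes of the set and NBAS, which is not a core factor in the strict sense. Among them, UPF3A, UPF3B, SMG6 and NBAS held a peak. UPF3B connects UPF2 to the exon junction complex, and UPF3A is its paralog. The UPF3B peak of 151 nt began 3 nt after the start of the last exon and held the last 144 coding bases, residues 436 to 483 of 483, followed by 7 nt that begin with the stop codon. The UPF3A peak (chr13:114299756-114299863, 108 nt) lay in intron 8 of a transcript of 10 exons, 755 nt after exon 8 and 1867 nt before the next exon. The paralogs thus held peaks in different parts of their genes. Only 24 nt of the UPF3B exon under the peak aligned with the UPF3A mRNA.

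SMG6 is the endonuclease that cuts NMD targets near the premature stop. Its peak of 103 nt lay in intron 10, which is 48.0 kb long, 2816 nt after exon 10. An antisense noncoding RNA gene overlaps this place, and 38 nt of the peak lay over an exon of it. The list gives no strand, so the SMG6 transcript and the antisense RNA cannot be told apart as the source. NBAS acts in transport between the Golgi and the endoplasmic reticulum and also takes part in NMD. Its peak (chr2:15313131-15313232, 102 nt) lay in intron 38 of a transcript of 52 exons, 3883 nt from the nearest splice site. SMG6 and NBAS were 244 and 394 kb long, the 2 longest of the 10 genes.

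UPF1, SMG1 and UPF2 held no peak, and neither did SMG5, SMG8 and SMG9, of which SMG5 helps to dephosphorylate UPF1 while SMG8 and SMG9 regulate the SMG1 kinase. The nearest peaks to UPF1 and SMG1 lay 182 and 107 kb upstream of the genes. SMG1 has many near-identical copies, and 36.3% of the 31-mers of its exons occurred elsewhere in the genome. In the exons of UPF3A, which held a peak, this share was 34.3%. Its median was 4.53% over the members with a peak and 4.93% over those without. Reads with several positions had been removed by the authors, and the part of this removal in the missing SMG1 peak was not tested.

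Of the RUVBL1 and RUVBL2 ATPases, which with their cofactors assemble kinases of the SMG1 family, RUVBL1 held a peak and RUVBL2 did not. The RUVBL1 peak (chr3:128078502-128078604, 103 nt) was the only one outside the span of the MANE Select transcript of its gene. It lay 2.26 kb past the end of this transcript, in an intron of longer RUVBL1 transcripts, of which 2 are coding and 1 belongs to the NMD class. It also lay in an intron of the antisense gene RUVBL1-AS1. With the span of the MANE Select transcript in place of that of the gene, 9 of 59 members held a peak, without RUVBL1. The exon junction genes RBM8A, MAGOH, CASC3 and RNPS1 held none, nor did the release factor genes ETF1 and GSPT1. Of the 31-mers in RBM8A exons 47.5% were repeated, the highest share among the 59 members. The peak nearest to GSPT1 was 5.32 kb past its end, the smallest distance among the 49 members without a peak, for which the median was 260 kb.

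Set against all protein-coding genes, the 59 members held peaks at a higher share when peaks anywhere in the gene were counted. A peak in the gene span was found for 16.9% of the members (95% Wilson interval 9.48 to 28.5%), and for 8.53% of the background (1648 of 19320). A peak over an exon of the gene was found for 4 of 59 members (6.78%, 2.67 to 16.2%), against 2.82%, which lies inside this interval. A peak across a splice site was found for 1 of 59 (1.69%), close to the 1.43% of the background. Without DHX34, the immunoprecipitated protein, 9 of 58 members held a peak (15.5%, 8.38 to 26.9%). The intervals cover counting error over genes alone, and because genes were chosen with earlier results of these data known, no test was made. The background includes genes that HEK293T may not transcribe, and neither these shares nor the length-standardized ones account for expression.

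Long genes held peaks more often, from 0.725% of the genes in the shortest decile to 23.9% in the longest, so the members were also compared at their own lengths. The members had a median length of 32.9 kb against 26.9 kb for all protein-coding genes. Giving each member the share of its length decile yielded a length-standardized share of 8.64%, or 5.10 genes, against the 10 genes counted. The 12 members in the 4 shortest deciles held no peak. In decile 5, from 18.1 to 26.9 kb, 3 of 11 members held one, DDX17, UPF3A and UPF3B, against 5.49% of all genes of this length. It was 2 of 12 in decile 6 (7.97% of all genes), 2 of 11 in decile 7 (9.58%) and 1 of 6 in decile 8 (12.5%). In decile 9 it was 0 of 4 (16.6%), and in decile 10 it was 2 of 3 (23.9%). Each decile held few members. With deciles of summed exon length the standardized share rose to 11.6%, inside the interval of the members. For peaks over an exon, that standardization gave 3.66% against 6.78%, inside the member interval of 2.67 to 16.2%. For peaks across a splice site it gave 1.85% against 1.69%. Per length of gene, the members held 3.23 peaks per Mb and other protein-coding genes 1.44. These densities are not matched for length, since the members reached 394 kb and all protein-coding genes 2474 kb.

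**Figure D3:**
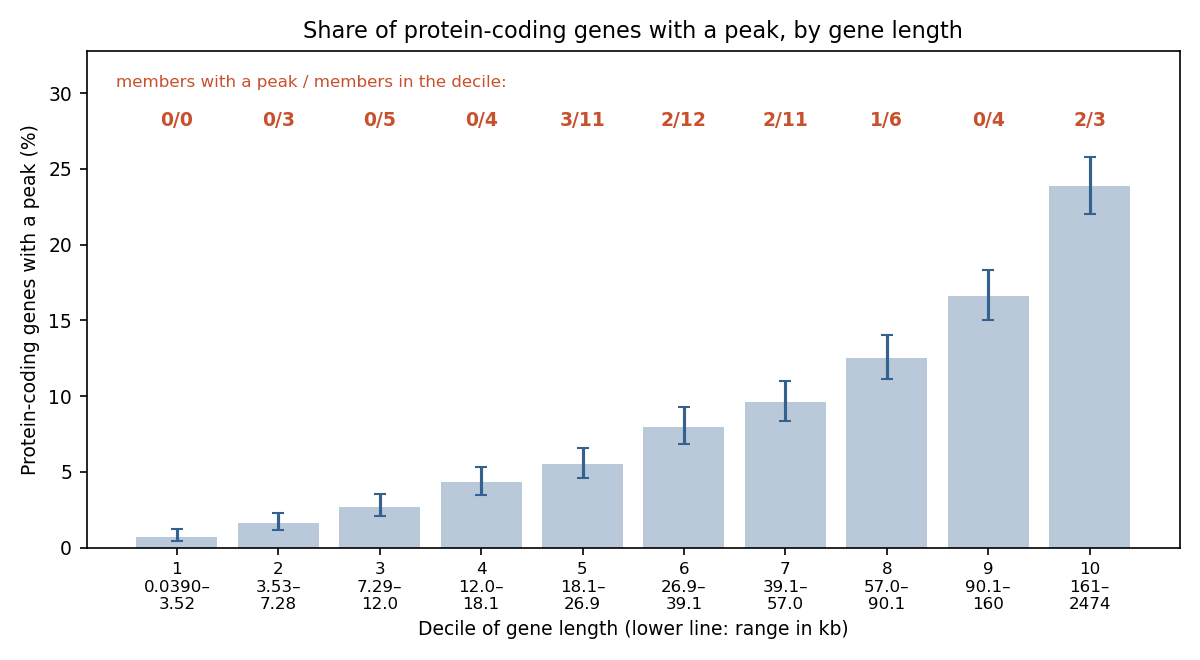
Share of protein-coding genes with a peak in each decile of gene length (bars, percent, with 95% Wilson intervals), with the number of members that held a peak and of all members in the decile in red. The share rises from 0.725% to 23.9%, and the members with a peak lie in deciles 5 to 8 and 10.

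Within the set, the 95% intervals of the classes overlapped. Among the genes grouped as core NMD 4 of 10 held a peak (40.0%, 95% Wilson interval 16.8 to 68.7%), against a length-standardized 11.7%. This count includes NBAS, which with SMG6 lay in the longest decile, where 23.9% of all genes held a peak. Among the DEAH-box genes it was 3 of 15 (interval 7.05 to 45.2%) against 10.1%, and among the DEAD-box genes 2 of 26 (7.69%, 2.14 to 24.1%) against 7.28%, so that the DEAD-box genes stood close to the share at their length. The exon junction genes were short, with a length-standardized 4.14%, and 0 of 4 held a peak. The 41 helicases together stood at 12.2% against 8.30%, and the 18 decay and associated factors at 27.8% against 9.42%. Peaks over an exon were held by 3 of 41 helicases (7.32%) and 1 of 18 decay and associated factors (5.56%). Standardized by summed exon length, the shares of all genes were 3.73% and 3.50%. The count of the decay and associated factors rests on 1 gene, so these values give no order between the groups. The splice-site peak of DDX17 belonged to a helicase. Of the RUVBL genes 1 of 2 held a peak. The difference between classes was not tested.

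**Figure D4:**
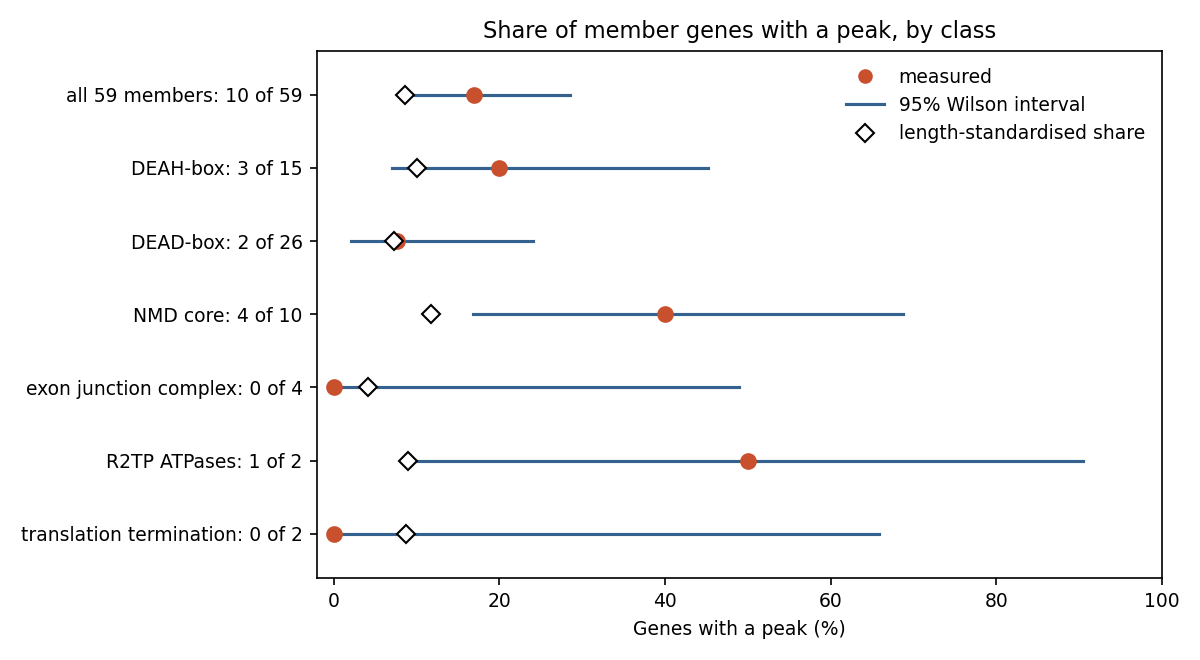
Share of member genes with a peak in each class (red points, percent, with 95% Wilson intervals as lines) beside the length-standardized share (open diamonds). The core NMD genes, with NBAS counted among them, stand at 40.0% with a length-standardized 11.7%, and the DEAD-box genes at 7.69% with 7.28%.

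**Figure D5:**
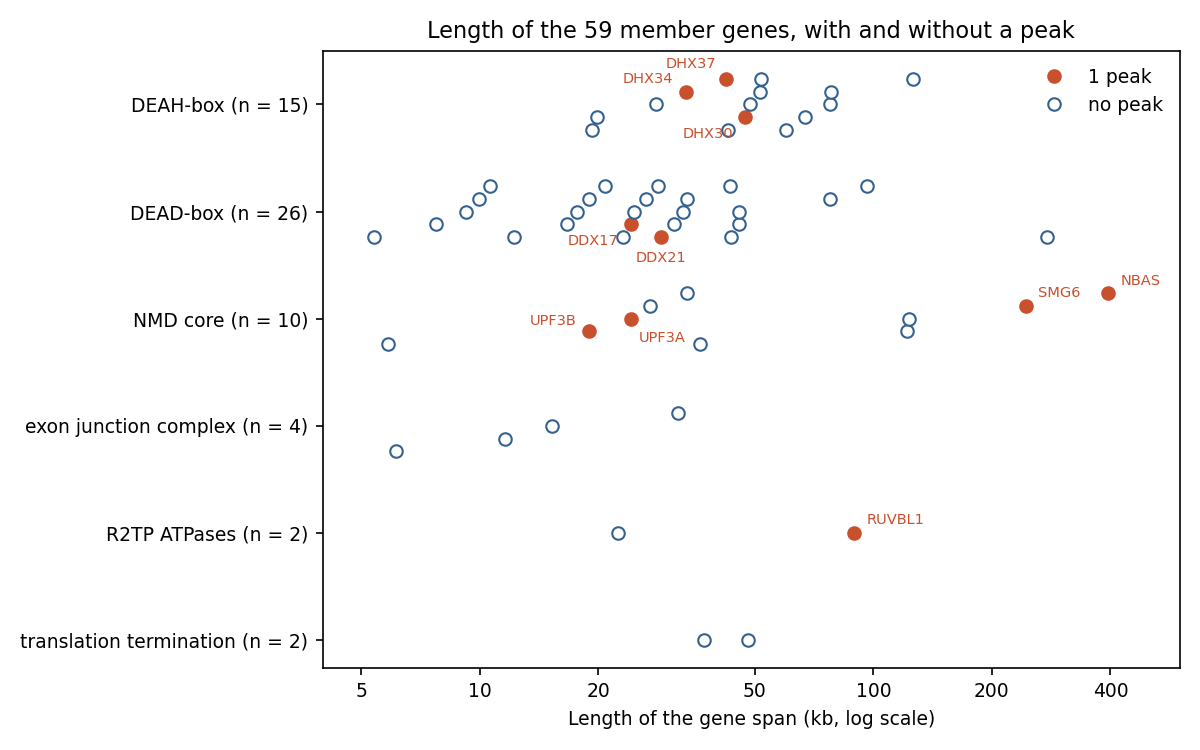
Length of the gene span of the 59 members by class, in kb on a log scale, with genes that held 1 peak filled in red and genes without a peak open. The genes with a peak run from UPF3B, the shortest, to NBAS at 394 kb, and no gene shorter than UPF3B held one.

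In position, the member peaks split into 4 over an exon and 6 in introns alone. The exonic share was 40.0% (95% Wilson interval 16.8 to 68.7%), against 29.9% of the 1900 peaks in other protein-coding genes. Peaks over an exon that overlapped no intron of any annotated transcript of the gene made up 3 of 10 against 7.79%. Of the 4 exonic peaks, 2 covered the stop codon, those of DDX21 and UPF3B, against 13 of 460 exonic peaks elsewhere (2.83%). The stop codon was singled out after the positions were seen. Along the transcript, 7 of the 9 peaks inside the MANE Select span lay past its midpoint (95% Wilson interval 45.3 to 93.7%). The share was 49.8% of the peaks in other genes, inside this interval. Of the 5 intronic peaks in that span, 3 lay within 1000 nt of a splice site (23.1 to 88.2%), against 32.0%, also inside the interval. The 4 exonic peaks were also the 4 member peaks wider than 110 nt (40.0%, against 23.3% of the other peaks), while the 6 intronic ones were 102 to 108 nt wide.

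Annotated NMD transcripts were set beside the peaks. A transcript of the NMD class was annotated for 5 of the 10 members with a peak and for 33 of the 49 without. No share over all protein-coding genes stands beside these counts, and the difference was not tested. The peak lay over an exon of an NMD-class transcript in DDX17 and DHX34, and in introns of such transcripts in DHX30, NBAS and RUVBL1.

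In base composition the member peaks differed from the other peaks by less than the spread between peaks. GC content was 53.1% ± 8.93 (SD, n = 10 peaks) against 50.5% ± 12.6 (SD, n = 1900), and ran from 39.2% in NBAS to 68.1% in DHX34. G took 40.0% ± 15.6 of bases 6 to 15 from the 5′ edge, against 37.5% ± 19.5. SMG6 had 7 G in these 10 bases and DDX17 had 1. 3 purine-rich hexamers were searched on the strand of the gene. They were taken from an earlier result over the peaks of this same series, so their shares are description only. The paper reported no specific binding motif. GAGGAG stood in the peaks of DDX17, UPF3B and RUVBL1 (14.9% of the other peaks), GGAGGG in those of SMG6 and RUVBL1 (16.5%), and GGGGAG in that of SMG6 (14.9%). At least 1 of the hexamers stood in 4 of 10 member peaks and in 33.1% of the others, and overlapping matches were counted once per peak. A match describes the sequence and is not a mapped site.

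Related genes outside the set were counted in the same way, and 9 of 80 held a peak (11.2%), with a length-standardized 8.69%. Of 21 further DEAD-box or DEAH-box genes none held one, against a length-standardized 8.41%, or 1.77 genes. EIF4A3, the helicase of the exon junction complex, was among these 21 genes. Of 9 assembly factors of SMG1-like kinases and of the RUVBL complex none did, against a length-standardized 7.46%, or 0.671 genes. Among 22 further decay factors 4 did, against a length-standardized 10.2%, or 2.24 genes. These were the nuclear exonuclease XRN2 in intron 16, PAN3 in intron 4, the deadenylase PARN in intron 22, and CNOT1, the scaffold of the CCR4-NOT complex, across the end of exon 29. Among 8 further exon junction proteins 2 held a peak, against a length-standardized 4.94%, or 0.395 genes. PNN held 1 across the end of exon 7 and SRRM1 held 1 inside exon 16. Of the 21 G-patch proteins, which stimulate DEAH-box helicases, 3 held a peak, against a length-standardized 9.17%, or 1.92 genes. CMTR1 held 1 across the end of exon 22, RBM5 held 1 across the end of exon 4, and RBM6 held 3. The RBM6 peaks lay in intron 6, across the end of exon 16, and at the RBM5 place, which longer RBM6 transcripts span. Counted once, 5 of these 10 peaks crossed a splice site, and all of these 10 had a score of 1. For the member peaks it was 1 of 10 (Wilson interval 1.79 to 40.4%). The share was 309 of 1900 for peaks in other protein-coding genes (16.3%), inside the member interval. The lists were chosen with earlier results of these data known, and the difference was not tested.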

How the data were processed

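The 9 libraries were grouped by their labels, 5 DHX34-GFP and 4 untagged. Per the methods of the study and the submitters' processing notes, the authors trimmed adapters with cutadapt, handled molecular identifiers with UMI-tools, aligned reads to GRCh38 with Bowtie, removed duplicates, reads with several positions and reads in repeats, and called peaks with MACS2 against the controls. Bowtie does not split reads over introns and reads were extended before calling, so peak edges can pass the ends of exons, and repeated sequence is underrepresented.

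The deposited list has 4 columns. The score in column 4, as deposited by the authors, is an integer of unstated meaning and served only to describe or filter peaks. It was read as 1 pooled result, and nothing in it belongs to 1 library. Depth per peak is unknown, and no replicate could be compared or left out.

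Starts are printed counting from 1. All GENCODE release 44 transcripts of a gene gave its exons, introns and splice sites, and its MANE Select transcript gave exon numbers, reading frame and residues. A peak crossed a splice site with at least 1 nt on each side. The annotation used by the authors was an earlier release on the same build. The standardized share is the mean, over members, of the share with a peak in each member's decile of gene length among 19320 protein-coding genes. A 31-mer was called repeated when it occurred elsewhere in GRCh38 on either strand. Intervals are 95% Wilson intervals. Analyses ran in Python 3.11.15 with pandas 2.3.3, scipy 1.17.1 and pysam 0.24.0, and the assignment was tested on simulated data. No significance test was run.

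The members, the related gene lists and the measures were chosen with earlier results of these data known. Every member with a peak, DHX34, UPF1, SMG1, DDX41, EIF4A3 and both RUVBL genes, members without a peak by class, and related genes with a peak were named. 1 further list of related genes is not reported here.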

Additional observations from a re-analysis of the deposited data

How the results depend on the processing

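The count of 10 members with a peak was unchanged when a peak had to lie wholly, by its midpoint or by 50% of its width in the gene, or with RefSeq gene spans, and was 9 without DHX34, 9 with MANE Select spans and 8 without peaks over genes of both strands. The RefSeq and MANE Select spans were chosen after seeing the data. It fell to 1, DHX34, at a score of 2 or more (background 0.228%), to 6 with peaks of at most 110 nt (background 6.84%), and to 4 with peaks over an exon. The length-standardized share was 8.59 to 8.84% under other length bins and backgrounds and 11.6% with deciles of summed exon length. The 4 exonic peaks remained with the MANE Select transcript, the central 50 nt or the midpoint, and 0 of 6 peaks of at most 110 nt were exonic. The crossing of the DDX17 splice site was lost with the central 50 nt or at most 110 nt (0 of 10 and 0 of 6) and kept when the first or the last 50 nt of each peak were removed. In all, 17 of 24 alternatives gave a count within 1.5 times the reported one or, for the length-standardized share, a value within the 95% Wilson interval of that share over all background genes. The cause of the other shifts was not tested. No paired analysis was possible because the list holds no value per library, and leaving out a replicate could not be done for the same reason. Depth per peak is unknown, and with 10 member peaks each share moves by 10.0 percentage points per peak.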
